A study of Mus musculus with 42 samples.

Results

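The cytochrome P450 genes of families 1 to 4 were read in thymic epithelial cells. They were the rows of the gene table whose Ensembl identifier maps to a symbol of the form Cyp, a family number from 1 to 4, a subfamily letter or letters and a gene number. This gave 81 genes, all protein coding, of 53465 in the table. Cytochromes P450 are heme-containing monooxygenases: many enzymes of families 1 to 3 oxidise drugs, plant compounds and steroids, mostly in liver, gut, lung and nasal epithelium, and enzymes of family 4 mostly hydroxylate fatty acids and eicosanoids. Medullary thymic epithelium is known for transcribing genes otherwise restricted to single organs, a few in each cell, which exposes developing T cells to self antigens. Liver-type and gut-type P450 genes belong to that class of gene, while a few P450 genes are used widely across tissues.

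The study deleted Ski, a transcriptional cofactor, in thymic epithelial cells (TEC). Sorted TEC subsets, 3 in all, were sequenced, 200 cells a library: Epcam+CD45-UEA-Ly51+ cells, the cortical phenotype (cTEC), Epcam+CD45-UEA+Ly51loMHCIIlo cells, the medullary phenotype with low MHC class II (mTEClo), and Epcam+CD45-UEA+Ly51loMHCIIhi cells, medullary with high MHC class II (mTEChi). Each subset came from 3 genotypes that the labels call Control, KO and Ski flox Control. The labels give neither the Cre driver, nor the age of the mice, nor whether 2 libraries share an animal, so the p-values cover the spread of libraries and not of mice. The 40 libraries used comprised 5 Control, 7 KO and 2 Ski flox Control libraries of cTEC, and 4, 7 and 2 of each medullary subset.

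The 40 libraries held 3217251 to 7068077 counts. Another 2 libraries, mTEClo Control replicate 2 with 82 counts and mTEChi Control replicate 2 with 41828, were left out. Replicate numbers follow the order of library numbers within a group and are not given by the labels. The labelled subsets were read against their markers: the summed level of 5 cTEC markers (Psmb11, Prss16, Ly75, Enpep, Ccl25) had a median of 2164 CPM (counts relative to library total) in cTEC against 259 in mTEClo and 725 in mTEChi, and 4 medullary genes (Krt5, Krt14, Cldn3, Cldn4) had medians of 77.1, 808 and 645 CPM. Single libraries overlapped, since the cTEC marker sum was 312 CPM in the lowest cTEC library and 1572 CPM in the highest mTEChi one. The sum of 4 general TEC markers (Epcam, Foxn1, Krt8, Krt18) had medians of 1610, 3813 and 3606 CPM in cTEC, mTEClo and mTEChi. In cTEC it ran from 581 to 6813 CPM. The lowest mTEClo sums were those of the 2 Ski flox Control libraries, 778 and 1184 CPM. What part this had in the P450 differences was not tested. The sum of 6 genes of MHC class II-high medullary cells (Aire, Cd80, Cd86, H2-Aa, H2-Ab1, Cd74) did not separate the subsets: it ran from 8482 to 34154 CPM in cTEC, from 10474 to 38308 in mTEClo, whose highest library was Ski flox Control replicate 2, and from 19332 to 32966 in mTEChi. Ski itself ranged from 3.36 to 27.2 CPM in cTEC Control and 0 to 42.2 in KO, from 7.83 to 44.5 and 0.523 to 16.9 in mTEClo, and from 8.21 to 23.0 and 0 to 16.9 in mTEChi. The Ski ranges overlapped in each subset, and a gene total does not separate the deleted exons from the rest. RNA of other cells was present in every subset: thymocyte markers had median sums of 1055, 857 and 356 CPM in cTEC, mTEClo and mTEChi, and fibroblast markers of 156, 79.7 and 75.8 CPM, with up to 6110 CPM in 1 cTEC library. Myeloid markers had median sums of 1657, 2150 and 1994 CPM, with up to 5810 CPM in mTEClo, and B cell markers of 125, 241 and 112 CPM. Endothelial markers had median sums of 102, 57.3 and 55.1 CPM, with up to 815 CPM in mTEClo Control replicate 3. The libraries also fall into an early and a late run of library numbers (19 and 21 libraries), which no label explains and for which values are given separately where a result rests on them. All 6 Ski flox Control libraries are in the late run.

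The promoters of 4 chosen genes are printed as examples and cannot show how patterns of detection differ in sequence. RefSeq promoters (build GRCm38.p6, 250 bases before to 50 after the start of transcription) were matched for 66 of the 81 genes. Cyp2a5 was the most abundant of the 81, Cyp2b19 was at 0 in every cTEC library and recurrent in mTEChi, Cyp2s1 is a medullary gene with many CpG sites, and Cyp4f13 was detected in nearly every library. Each sequence runs 5′ to 3′ on the gene's strand, and capitals mark CG dinucleotides and the TATAAA motif read on that strand.
Cyp2a5, chr7:26835089-26835388 (plus strand): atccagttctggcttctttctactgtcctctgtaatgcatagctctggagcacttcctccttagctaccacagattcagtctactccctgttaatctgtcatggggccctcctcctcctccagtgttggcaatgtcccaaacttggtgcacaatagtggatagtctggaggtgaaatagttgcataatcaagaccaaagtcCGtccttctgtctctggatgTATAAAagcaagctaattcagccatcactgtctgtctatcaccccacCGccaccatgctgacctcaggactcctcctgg
Cyp2b19, chr7:26756892-26757191 (plus strand): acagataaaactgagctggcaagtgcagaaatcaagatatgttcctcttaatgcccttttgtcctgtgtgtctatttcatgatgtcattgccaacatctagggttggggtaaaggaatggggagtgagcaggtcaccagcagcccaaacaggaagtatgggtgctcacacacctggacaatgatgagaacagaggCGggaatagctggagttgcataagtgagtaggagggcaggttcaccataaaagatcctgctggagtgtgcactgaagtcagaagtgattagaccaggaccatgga
Cyp2s1, chr7:25816476-25816775 (minus strand): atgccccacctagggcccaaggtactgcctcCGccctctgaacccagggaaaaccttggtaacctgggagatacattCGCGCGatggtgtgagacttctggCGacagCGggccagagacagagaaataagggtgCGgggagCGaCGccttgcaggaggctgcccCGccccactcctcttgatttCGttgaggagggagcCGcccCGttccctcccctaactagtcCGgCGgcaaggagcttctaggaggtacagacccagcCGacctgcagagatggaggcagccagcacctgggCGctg
Cyp4f13, chr17:32947312-32947611 (minus strand): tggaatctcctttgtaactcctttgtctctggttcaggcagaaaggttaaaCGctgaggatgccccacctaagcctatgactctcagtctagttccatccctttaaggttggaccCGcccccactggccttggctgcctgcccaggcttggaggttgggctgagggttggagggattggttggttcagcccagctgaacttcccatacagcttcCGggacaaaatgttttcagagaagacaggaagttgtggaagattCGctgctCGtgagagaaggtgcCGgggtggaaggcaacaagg
The Cyp2a5 window holds 2 CG dinucleotides and a TATAAA motif that begins 29 bases before the start. The Cyp2b19 window holds 1 CG dinucleotide, the Cyp4f13 window 6 and the Cyp2s1 window 17. Cyp4f16 and Cyp4v3, detected in as many libraries as Cyp4f13, hold 2 and 17, the same numbers as Cyp2a5 and Cyp2s1. TATAAA on either strand was found in 42.4% of the 66 promoters, against 14.2% of all 27025 promoters of the same length. The median number of CG dinucleotides was 2 in the 66 promoters and 7 over all promoters. Among genes detected in 20 or fewer libraries 48.2% of 56 promoters held TATAAA, and among genes detected in 21 or more libraries 1 of 10 did. TNGCGTG, the core of the aryl hydrocarbon receptor element, was found on either strand in 1.52% of the 66 promoters and in 5.12% of all promoters. The DR1 motif, a direct repeat bound by lipid-sensing nuclear receptors, was found on either strand in 0 of the 66 and in 0.0444% of all promoters. These matches describe letters in a window and not binding.

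Medullary libraries held more P450 genes than cortical ones. A gene was called detected at 1 count or more, and the number detected of 81 had a median of 10.5 in cTEC (range 4 to 18, n = 14), 21 in mTEClo (10 to 33, n = 13) and 28 in mTEChi (15 to 41, n = 13). The share of other protein-coding genes detected had medians of 52.8%, 60.9% and 65.8%, so the P450 share, with medians of 13%, 25.9% and 34.6%, was below it in every subset. In cTEC 35 of the 81 genes were detected in at least 1 library, in mTEClo 67 and in mTEChi 68. No gene was detected in cTEC alone, and 45 were detected in a medullary library and in none of the 14 cTEC libraries. The summed P450 level had a median of 153 CPM in cTEC (55.4 to 707), 659 CPM in mTEClo (58.1 to 1368) and 632 CPM in mTEChi (370 to 1404), so that the subsets overlapped. In such bulk libraries more cells expressing a gene and more RNA per cell cannot be told apart. With every library thinned to 3000000 counts the medians were 10, 21 and 26 genes. In the early libraries the medians were 10, 27.5 and 20.5 genes in cTEC, mTEClo and mTEChi, and in the late ones 11, 20 and 30, so that the medullary subsets changed places while both stayed above cTEC. By genotype, the mean was 13.2 Control, 9.1 KO and 9.0 Ski flox Control in cTEC, 28.2, 20.9 and 15 in mTEClo, and 28.0, 24.9 and 34 in mTEChi, with overlapping libraries of Control and KO in each subset.

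**Figure D1:**
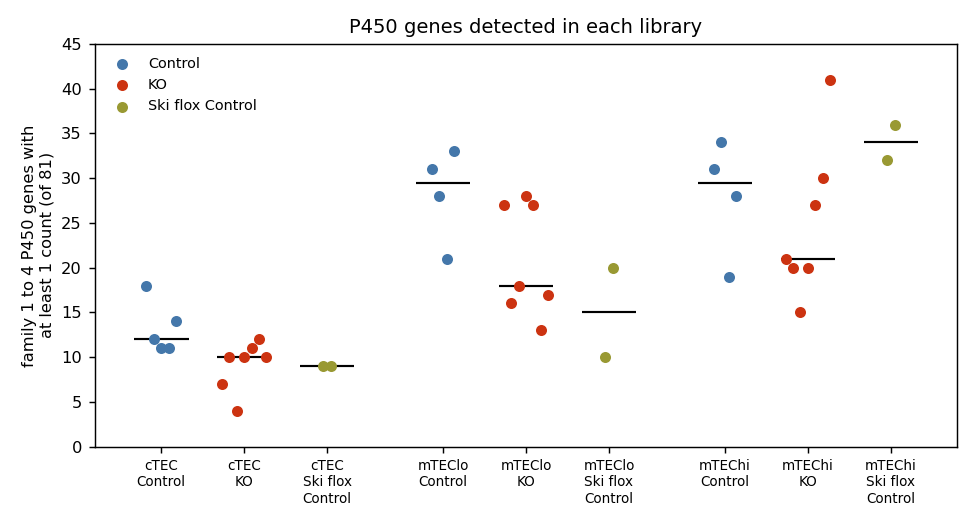
Number of family 1 to 4 P450 genes with at least 1 count in each library, by subset and genotype (dots are libraries, bars are medians). The 14 cTEC libraries hold 4 to 18 genes, the 13 mTEClo libraries 10 to 33 and the 13 mTEChi libraries 15 to 41.

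Most of the genes were seen in few libraries. Of the 81, 1 gene (Cyp4a30b) was at 0 in all 40 libraries, 42 were detected in 1 to 5 libraries, 26 in 6 to 20, 8 in 21 to 34 and 4 in 35 or more. For 40 genes a single library held over 50% of all counts. A level of 10 CPM was reached in at least 1 library by 57 genes, of which 17 reached it in cTEC, 36 in mTEClo and 47 in mTEChi, and 14 genes reached 100 CPM. Per kb of exon, the highest mean levels over the 40 libraries were those of Cyp2a5 (68.8 CPM per kb), Cyp2g1 (27) and Cyp2f2 (18.6), which lie in 1 gene cluster, followed by Cyp4f16 (11.7) and Cyp4f18 (10.3).

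**Figure D2:**
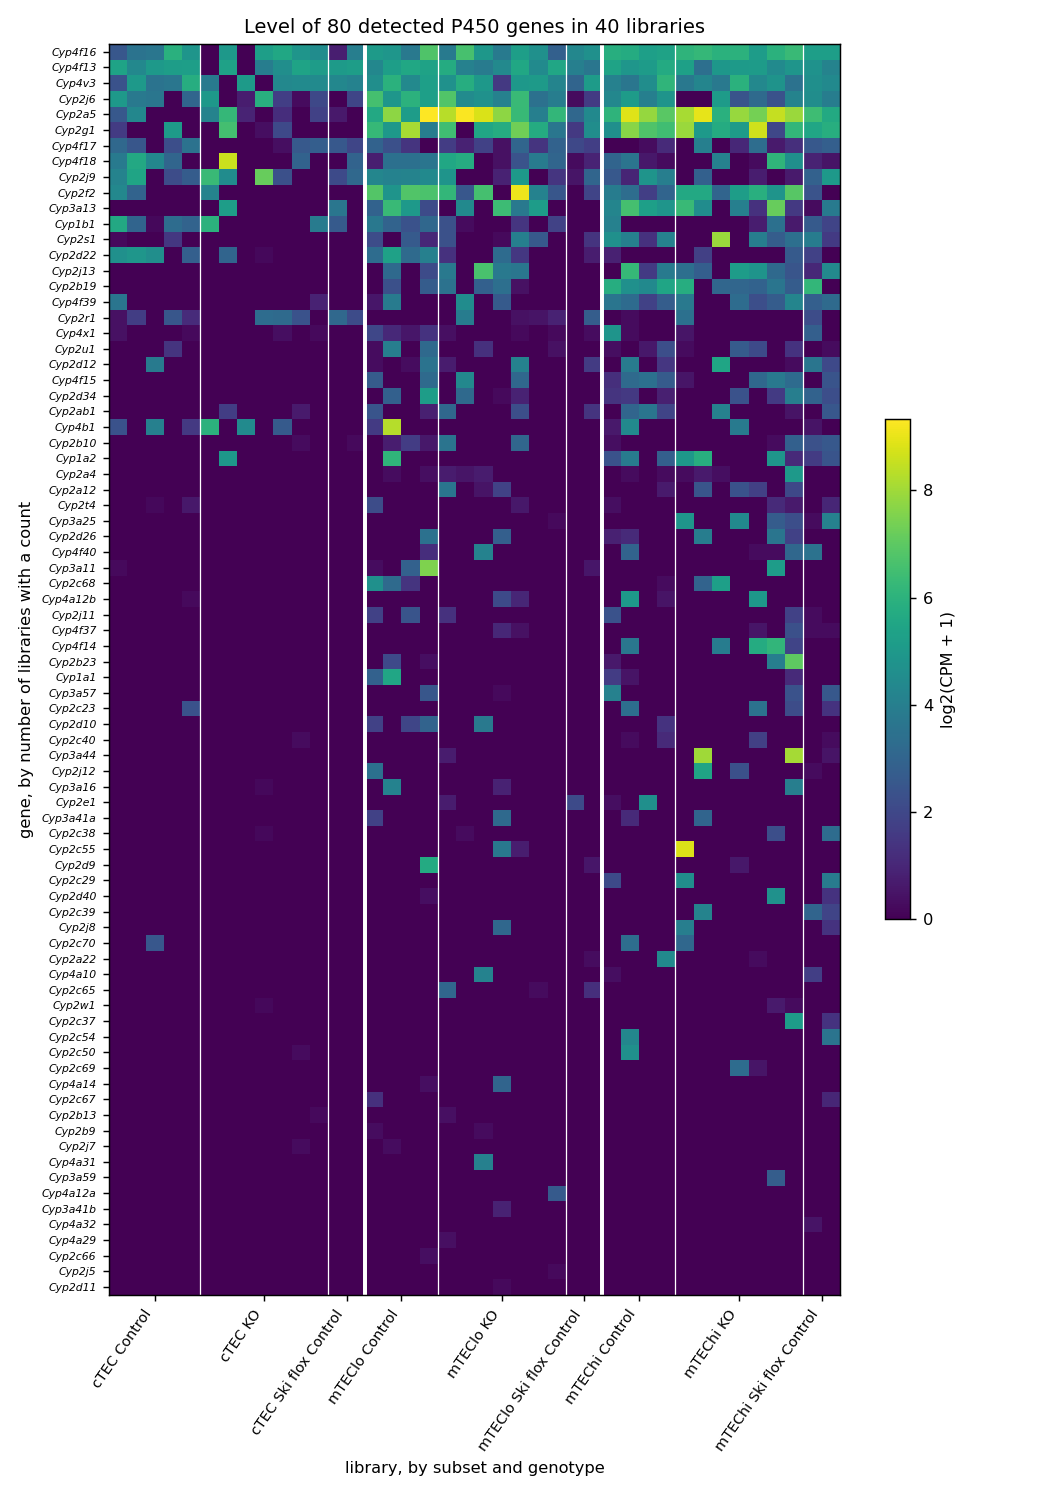
Level of the 80 detected P450 genes (rows, by number of libraries with a count) in the 40 libraries (columns), as log2(CPM + 1). The top 4 rows, Cyp4f16, Cyp4f13, Cyp4v3 and Cyp2j6, are filled across all subsets, and most rows below are empty in the 14 cTEC libraries and filled in scattered medullary libraries.

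The 4 genes seen in 35 or more libraries did not pass the edgeR test between subsets. Not passing does not show equal levels, and the medians of Cyp4f16 and Cyp2j6 differed more than those of Cyp4f13 and Cyp4v3. Cyp4f13, a fatty acid hydroxylase gene of the Cyp4f cluster, had 19.6 to 41.9 CPM in the 5 cTEC Control libraries, 19.2 to 45.4 CPM in the 4 mTEClo Control libraries and 28.7 to 51.3 CPM in the 4 mTEChi Control libraries. Its level was 0 in cTEC KO replicates 1 and 3 and 9.50 to 51.8 CPM in the other KO libraries. Cyp4v3, which hydroxylates the end of fatty acid chains and is known from the retina, had medians of 17.6 CPM in cTEC, 30.3 in mTEClo and 19.2 in mTEChi and was missed only in cTEC KO replicates 2 and 4. Cyp4f16, detected in 38 libraries, had medians of 18.5, 24.9 and 56.1 CPM. Cyp2j6, of an arachidonic acid epoxygenase subfamily and detected in 35, had medians of 2.93, 25.4 and 15.2 CPM, with up to 57.5 CPM in cTEC, so that its subsets overlapped. For mTEChi against cTEC over Control and KO, the log2 difference of Cyp4f13 was 0.28 ± 0.55 (SE; edgeR adjusted p = 0.831) and that of Cyp4v3 was 0.48 ± 0.64 (edgeR adjusted p = 0.703).

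Subsets were compared with edgeR's quasi-likelihood test over 23040 genes with enough counts, which kept 54 of the 81 P450 genes and dropped 27. Calls used an adjusted p under 0.05. The fits over Control and KO together average the 2 genotypes, and mTEClo and mTEChi were each set against the same cTEC libraries, so their results are not independent. In mTEClo, 16 of the 54 genes rose over cTEC and 0 fell, where 14.2% of all tested genes rose and 2.25% fell. In mTEChi 22 rose and 0 fell, where 21.1% of all tested genes rose and 3.31% fell. The median log2 difference of the 54 genes was 2.84 for mTEClo (0.27 over all genes) and 3.86 for mTEChi (0.33 over all genes). Genes that passed the count filter only through the medullary libraries had to be higher there, so these counts describe the list and carry no test of it.

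Within a single genotype fewer genes passed. In Control, mTEClo against cTEC gave 0 calls among the 54 (0.773% of all genes called; at an unadjusted p under 0.05 there were 21 of the 54 and 4125 of all 23040). In Control, mTEChi against cTEC gave 1 call, Cyp2b19, where 1.07% of all genes rose and 0.0434% fell. The Cyp2b19 call was lost when any 1 of the 9 libraries compared was left out (edgeR adjusted p from 0.0543 to 0.106), and without cTEC Control replicate 2 the 1 call was Cyp2a5. In KO, 5 genes rose in mTEClo, Cyp2a5, Cyp2j13, Cyp2s1, Cyp2f2 and Cyp2b19, where 5.19% of all genes rose and 0.49% fell. In KO, 18 genes rose in mTEChi, where 12.9% of all genes rose and 1.82% fell, and leaving out 1 cTEC KO library took this count to 6 (replicate 4), 7 (3 or 6), 8 (7) or 10 (1 or 5). Between mTEChi and mTEClo 0 P450 genes passed in Control, in KO or over both, where 0%, 0.0174% and 0.143% of all genes were called. At an unadjusted p under 0.05 there were 6, 15 and 10 of the 54, beside 1720, 4021 and 3706 of all 23040 genes, and DESeq2 called 1, 6 and 2 (0.872%, 2.4% and 3.13% of all genes) and limma voom 0, 2 and 3 (0.343%, 2.76% and 3.81%). Leaving out cTEC KO replicate 3, 4, 6 or 7 took the mTEClo count in KO to 1. In Control, DESeq2 called 6 P450 genes in mTEClo and 6 in mTEChi against cTEC (6.6% and 7.43% of all genes), and limma voom 6 and 8 (4.51% and 8.48%). In KO, DESeq2 called 8 and 11 (10.1% and 15%) and limma voom 2 and 14 (4.5% and 14%).

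**Figure D3:**
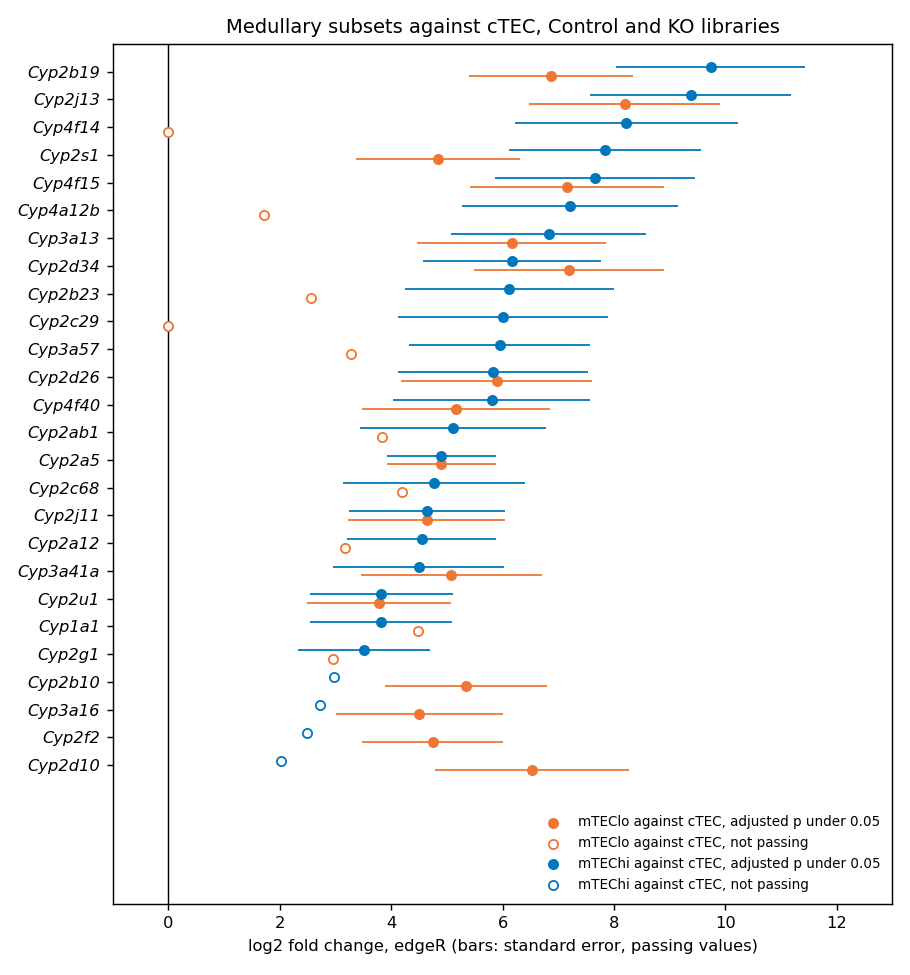
edgeR log2 fold changes of mTEClo and mTEChi against cTEC over Control and KO libraries for the 26 P450 genes called in either comparison; filled points passed, open points did not, and bars are standard errors of passing values. All passing values are positive, and fitted values of genes at 0 in cTEC depend on the prior count.

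Cyp2a5 (ENSMUSG00000005547, chr7:26835305-26843548), which hydroxylates coumarin and nicotine in liver and nasal epithelium, had the highest mean CPM of the P450 genes in both medullary subsets. Its level was 4.93, 19.2, 0, 0 and 0 CPM in the 5 cTEC Control libraries and 0 to 72.5 CPM (median 1.30) in the 7 cTEC KO libraries. In mTEClo the 4 Control libraries held 48.9, 211, 34.4 and 640.0 CPM and the 7 KO libraries 15.3 to 609 CPM. In mTEChi the 4 Control libraries held 66.5, 471, 230.0 and 121 CPM and the 7 KO libraries 60.2 to 506 CPM. All 26 medullary libraries had counts, the lowest being mTEClo Ski flox Control replicate 1 with 7.62 CPM. Next came mTEClo KO replicate 6 with 15.3 CPM and mTEClo Ski flox Control replicate 2 with 20.3 CPM. The highest cTEC libraries overlapped the lowest mTEClo ones. The log2 difference from cTEC over Control and KO was 4.90 ± 0.98 in mTEClo (SE; edgeR adjusted p = 0.00122) and 4.90 ± 0.98 in mTEChi (edgeR adjusted p = 0.000808). The Cyp2a5 mean was 16.4, 307 and 269 CPM in the early cTEC, mTEClo and mTEChi libraries, and 0.622, 124 and 180 CPM in the late ones. Cyp2a4, which shares 36.1% of its 50-base words with Cyp2a5, had at most 0.623 CPM in 25 of the 26 medullary libraries and 31.1 CPM in mTEChi KO replicate 7, and how reads common to both were assigned is not given in the sources used here.

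Cyp2b19 (chr7:26757142-26772630), known as a keratinocyte arachidonic acid epoxygenase, was at 0 in all 14 cTEC libraries. The 4 mTEChi Control libraries held 54.5, 24.8, 20.2 and 43.1 CPM. The 7 mTEChi KO libraries held 54.9, 0, 7.49, 7.43, 6.62, 11.2 and 5.63 CPM, and the Ski flox Control libraries 71.7 and 0. In mTEClo 6 of 13 libraries had counts, none above 10.5 CPM. Every mTEChi Control library lay above every cTEC and mTEClo library. Against the floor of 3 counts over the cTEC group, the mean over all genotypes was at least 592-fold higher in mTEChi and at least 69.2-fold higher in mTEClo. Over Control and KO only, the edgeR adjusted p was 0.000487 in mTEChi and 0.00378 in mTEClo. The mTEChi mean was 24.8 CPM in the early and 22.6 CPM in the late libraries.

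Cyp2j13 (chr4:96027534-96077546), of the same epoxygenase subfamily as Cyp2j6, was likewise at 0 in all 14 cTEC libraries. The mTEChi Control libraries held 0, 74.3, 2.02 and 13.3 CPM, and 11 of 13 mTEChi libraries had counts. The mTEClo Control libraries held 0, 8.14, 0 and 3.39 CPM, and the highest mTEClo level, 98.1 CPM, was in KO replicate 3. The mean over all genotypes was at least 386-fold higher in mTEChi and at least 282-fold higher in mTEClo than the cTEC floor. Over Control and KO only, the edgeR adjusted p was 0.00113 in mTEChi and 0.00318 in mTEClo. Its mTEChi mean was 20.7 CPM in the early and 10.9 CPM in the late libraries.

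Cyp3a13 (chr5:137892932-137921619), an intestinal member of the steroid- and drug-oxidising subfamily Cyp3a, was at 0 in 12 of 14 cTEC libraries. The exceptions were KO replicate 2 with 35.3 CPM and Ski flox Control replicate 1 with 11.7. The mTEChi Control libraries held 18.1, 93.8, 36.9 and 27.9 CPM and the mTEClo Control libraries 6.63, 79.3, 32.3 and 3.39 CPM. KO libraries spread from 0 to 142 CPM in mTEChi and from 0 to 82.9 CPM in mTEClo, so they overlapped Control. Cyp3a13 rose by 6.83 ± 1.75 log2 in mTEChi (SE; edgeR adjusted p = 0.00638) and by 6.16 ± 1.70 in mTEClo (edgeR adjusted p = 0.0142). It shares none of its 50-base words with another P450 gene.

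Cyp2s1 (chr7:25802475-25816913), an epithelial P450 of skin and airways, had at most 1.85 CPM in cTEC. The mTEChi Control libraries held 24.4, 15.8, 1.52 and 16 CPM, whereas 3 of 7 mTEChi KO libraries were at 0 and KO replicate 3 held 240 CPM, 57.5% of all its counts. Its rise was 7.84 ± 1.73 log2 in mTEChi (SE; edgeR adjusted p = 0.00240) and 4.83 ± 1.47 in mTEClo (edgeR adjusted p = 0.0246), where no library exceeded 15.1 CPM.

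Cyp2f2 (chr7:27119909-27133660), the naphthalene-oxidising enzyme of airway club cells, passed in mTEClo (4.74 ± 1.27 log2, SE; edgeR adjusted p = 0.0111) and not in mTEChi (2.49 ± 1.14; edgeR adjusted p = 0.118). The mTEClo Control libraries held 112, 27.6, 111 and 101 CPM against 14.2, 9.16, 2.28 and 7.03 CPM in mTEChi Control, and these 2 groups did not overlap. The KO libraries overlapped, with 0 to 540.0 CPM in mTEClo and 6.95 to 118 CPM in mTEChi, and by edgeR the direct comparison of mTEChi with mTEClo did not pass for any P450 gene. Cyp2g1 (chr7:26808892-26821205), the olfactory P450, showed 24.1, 200.0, 106 and 88.2 CPM in mTEChi Control and 74.4, 30.5, 276 and 14.6 CPM in mTEClo Control, with 5 of 14 cTEC libraries above 0. It rose in mTEChi (3.51 ± 1.19 log2, SE; edgeR adjusted p = 0.0283). That call was lost without mTEChi Control replicate 3 (adjusted p = 0.0551) or without mTEChi KO replicate 5 (adjusted p = 0.0519). In mTEClo the log2 difference of Cyp2g1 was 2.95 ± 1.16 (edgeR adjusted p = 0.0773).

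**Figure D4:**
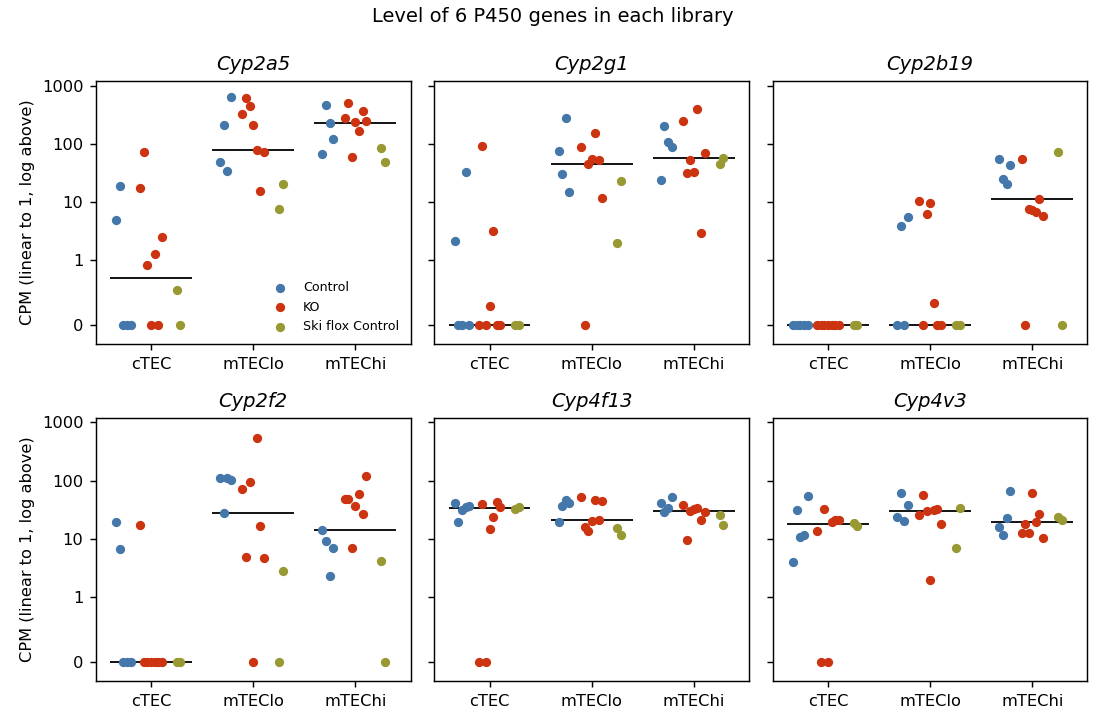
CPM of 6 P450 genes in each of the 40 libraries by subset (x axis), coloured by genotype; bars are medians over all libraries of a subset, and the y axis is linear to 1 CPM and logarithmic above. Cyp2a5, Cyp2g1, Cyp2b19 and Cyp2f2 sit at or near 0 in most cTEC libraries, while Cyp4f13 and Cyp4v3 have medians of 17.6 to 34 CPM in all 3 subsets and are each at 0 in 2 cTEC libraries.

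Cyp4f15 and Cyp2d34 also passed in both medullary subsets and were at 0 in every cTEC library. Cyp4f15, of a subfamily that inactivates leukotrienes, had 1.37, 8.38, 9.87 and 5.47 CPM in mTEChi Control and counts in 9 of 13 mTEChi libraries. Its mean over all genotypes was at least 114-fold above the cTEC floor in mTEChi and at least 78.0-fold in mTEClo. Over Control and KO only, its edgeR adjusted p was 0.00478 in mTEChi and 0.00869 in mTEClo. Cyp2d34, of the subfamily that holds the human debrisoquine hydroxylase, had 35.7 CPM in mTEClo Control replicate 5 and at most 14.8 CPM elsewhere. Its edgeR adjusted p was 0.00824 in mTEChi and 0.00738 in mTEClo. With the number of detected genes as a covariate both mTEChi calls were lost (edgeR adjusted p = 0.058 for Cyp4f15 and 0.0557 for Cyp2d34).

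The 8 genes called in mTEChi however a single library was left out were Cyp2a5, Cyp2b19, Cyp2d26, Cyp2d34, Cyp2j13, Cyp2s1, Cyp3a13 and Cyp4f15. In mTEClo 9 were: Cyp2a5, Cyp2b10, Cyp2b19, Cyp2d34, Cyp2f2, Cyp2j13, Cyp2s1, Cyp3a13 and Cyp4f15. DESeq2 and limma voom both also called 9 of the 22 mTEChi genes and 7 of the 16 mTEClo genes, where DESeq2 called 19.2% and 15.4% of all genes and limma voom 24.5% and 13%. DESeq2 gave no adjusted p for Cyp2c29, Cyp2j11, Cyp3a41a, Cyp3a57, Cyp4a12b and Cyp4f40 in mTEChi. In mTEClo it gave none for Cyp2j11, Cyp3a16, Cyp3a41a and Cyp4f40. Those genes stand here as not called by it. With the number of detected genes as a covariate, 11 of the 22 and 9 of the 16 were still called. Those lost included Cyp2g1 in mTEChi (edgeR adjusted p = 0.198) and Cyp2f2 (0.0678), Cyp2s1 (0.0952) and Cyp2b10 (0.498) in mTEClo.

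The other 14 mTEChi calls, Cyp2g1 among them, were each lost when 1 library was left out. Cyp4f14, a leukotriene hydroxylase gene, was at 0 in all cTEC and mTEClo libraries and had counts in 5 of 13 mTEChi libraries: 11.7 CPM in Control replicate 3 and 14.2, 52.7, 68.7 and 2.72 CPM in 4 KO libraries. Without Control replicate 3 the edgeR adjusted p of Cyp4f14 was 1.0, as was that of Cyp4f40. Cyp2c29 was lost without Control replicate 1 or KO replicate 1, Cyp2b23 without Control replicate 1, and Cyp3a57 and Cyp2j11 without Control replicate 1 or KO replicate 7, with an adjusted p of 1.0 without any of these. Cyp4a12b was lost without KO replicate 5 (adjusted p = 1.0) or Control replicate 3 (0.0521), Cyp2a12 without Control replicate 5 (1.0), and Cyp3a41a without KO replicate 2 or mTEChi Control replicate 3 (1.0) or any cTEC Control library (0.0507 to 0.0554). Cyp2ab1 was lost without KO replicate 3 (adjusted p = 0.139) and Cyp2u1 without Control replicate 5 (0.0870). Cyp1a1, the classic aryl hydrocarbon receptor target, was lost without KO replicate 7 (adjusted p = 1.0) or Control replicate 1 (0.0993), and without any of 5 further libraries (0.0501 to 0.0545). Cyp2c68 was lost without any of 10 libraries (adjusted p from 0.0508 to 1.0). In the fits that took an adjusted p to its upper limit, the mTEChi group that lost the library was left without a count. The difference averaged over Control and KO then had no usable estimate. Those lost calls therefore do not measure the rise in the other libraries. The count of calls in mTEChi fell from 22 to 15 without mTEChi Control replicate 3.

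In mTEClo 7 calls were lost in the same way. Cyp2d10 was lost without KO replicate 3 (6.78 CPM or less in every other library, adjusted p = 1.0 without it) and Cyp2d26 without KO replicate 4 or Control replicate 5 (1.0). Cyp2j11 was lost without KO replicate 1 (1.0), Cyp3a41a without Control replicate 1 or KO replicate 4 (1.0), Cyp4f40 without KO replicate 3 or Control replicate 5 (1.0) and Cyp3a16 without KO replicate 4 (1.0). The last 3 were also lost without 1 of several cTEC libraries (0.0505 to 0.0671). Cyp2u1 was lost without any of 13 libraries, with an adjusted p of at most 0.106. Here too, the fits at the upper limit of p left the mTEClo group that lost the library without a count. Cyp3a41a and Cyp3a41b share 93.5% or more of their 50-base words, Cyp4a12a and Cyp4a12b 48.9%, and Cyp2d10 shares 35.2% of its words with other P450 genes, so values of these genes are uncertain by gene.

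Values also ran the other way. Over Control and KO, 7 of the 54 genes had a negative log2 difference in mTEChi and 7 in mTEClo, and 0 of these passed. Cyp1b1, which oxidises steroid hormones and retinoids in mesenchymal tissues, was detected in all 5 cTEC Control libraries (48.4, 7.02, 0.138, 8.81 and 6.73 CPM) and in 1 of 4 mTEChi Control libraries (16.2 CPM). The cTEC Control range included the mTEChi value (log2 difference -2.28 ± 1.5, SE, over Control and KO; edgeR adjusted p = 0.315). The cTEC library with the highest Cyp1b1 level, KO replicate 1 with 61.8 CPM, was also the one with the highest sum of fibroblast markers, 6110 CPM; what part those cells had in its level was not tested. Cyp2r1, the vitamin D hydroxylase of liver, was detected in 9 of 14 cTEC, 5 of 13 mTEClo and 3 of 13 mTEChi libraries, at up to 8.93, 14 and 9.76 CPM. Cyp2d22 had 24.8, 28.7, 23.4, 0 and 6.02 CPM in cTEC Control and 0.821, 0, 0 and 0 CPM in mTEChi Control (log2 difference -3.05 ± 1.51 over Control and KO; edgeR adjusted p = 0.152).

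The genes were then read by their position. A cluster of 13 P450 genes on chromosome 7, chr7:25802475-27158668 in GRCm38, runs from Cyp2s1 through the Cyp2b, Cyp2a and Cyp2g1 genes to Cyp2f2 and Cyp2t4. Its summed level had a median of 1.80 CPM in cTEC, 281 CPM in mTEClo and 367 CPM in mTEChi, with maxima of 166, 796 and 720 CPM. All 26 medullary libraries had counts of Cyp2a5, so a joint count with it is the other gene's own count. It was 25 for Cyp2g1, next to Cyp2a5 with no 50-base word in common, and 3 for Cyp2a22 on its other side. Cyp2a12 and Cyp2f2, also neighbours, were both detected in 7 of 24 medullary libraries that had either. Whether neighbours were detected together more often than other genes was not tested. The Cyp4f cluster of 8 genes on chromosome 17 (chr17:32452723-32947402) differed, with median sums of 58.4 CPM in cTEC, 62.7 in mTEClo and 106 in mTEChi. The 14 genes of the Cyp2c cluster on chromosome 19 (chr19:39007019-40187333), which encode much of the liver's drug-oxidising capacity, had median sums of 0, 0.671 and 8.81 CPM and were present in 2.04%, 6.04% and 14.3% of gene and library combinations. The Cyp3a cluster of 8 genes on chromosome 5 (chr5:145345279-146113287) had median sums of 0, 0.460 and 16.2 CPM, and the 10 genes around Cyp4a on chromosome 4 had 0.0838, 1.18 and 0.390 CPM. Cyp2j genes on chromosome 4 (8 genes) stood at 11.2, 54.3 and 36.4 CPM.

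Single libraries carried the highest levels of many liver and gut P450 genes. Cyp2c55, an intestinal arachidonic acid oxidase, had 451 CPM in mTEChi KO replicate 1 and 0 in the other 12 mTEChi libraries, which is 96.6% of all its counts. Cyp3a44, a liver gene, had 251 CPM in mTEChi KO replicate 2, 265 CPM in KO replicate 7 and 0.398 CPM in 1 Ski flox Control library, with 0 in the other 10 mTEChi libraries. Cyp4b1, of airway epithelium, had 309 CPM in mTEClo Control replicate 3 and at most 62.0 CPM elsewhere. That library also held the highest Cyp1a1 level, 44.5 CPM. Its sums of endothelial markers (815 CPM) and enterocyte markers (7945 CPM) were the highest of all 40 libraries. Cyp3a11, the main Cyp3a enzyme of mouse liver, had 0.246, 0, 6.45 and 181 CPM in mTEClo Control and 35 CPM in mTEChi KO replicate 6. Cyp2b23 had 128 CPM in mTEChi KO replicate 7 and 14.9 CPM in KO replicate 6. Cyp1a2, the caffeine-oxidising liver enzyme, reached 67.6 CPM in mTEClo Control replicate 3, 55.8 CPM in mTEChi KO replicate 2 and 29.4 CPM in cTEC KO replicate 2. The library cTEC KO replicate 2 also had the highest level of Cyp4f18 (376 CPM) and the highest cTEC levels of Cyp2g1 (93.0 CPM) and Cyp2a5 (72.5 CPM), and the sum of 11 enterocyte markers there, 491 CPM, was the highest of the cTEC libraries. Its sum of B cell markers, 1076 CPM, was the highest of all 40 libraries. The part of such RNA in these values was not tested.

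Deletion of Ski was read within each subset as KO against Control, with KO against Ski flox Control beside it. No P450 gene passed in any of the 3 subsets, where 0% of all genes were called by edgeR. At an unadjusted p under 0.05, 8 of the 54 P450 genes differed in cTEC, 14 in mTEClo and 13 in mTEChi, beside 2443, 1639 and 1586 of all 23040 genes. limma voom called 0 P450 genes in each subset, where it called 0.0434%, 0.0477% and 0.0608% of all genes. DESeq2 called 3 in cTEC (Cyp3a13 and Cyp1a2 higher, Cyp2s1 lower), 6 lower in mTEClo (Cyp4b1, Cyp3a11, Cyp1a2, Cyp2c68, Cyp2j12, Cyp2b23) and 3 higher in mTEChi (Cyp3a44, Cyp3a11, Cyp2j12), where it called 2.26%, 0.994% and 0.634% of all genes; these genes were named after their values were seen. No P450 gene passed for KO against Ski flox Control, for Ski flox Control against Control, or for the KO difference compared between subsets, where edgeR again called 0 of all genes and limma voom 0 P450 genes. In the last comparison many P450 genes were at 0 in every library of a group. Cyp2b19 and Cyp2j13 were at 0 in all cTEC libraries, so their KO difference there had no usable estimate. For mTEClo with cTEC their edgeR SEs were 2083 and 7274 log2, and such genes could not pass. DESeq2 called 4 P450 genes in cTEC and 3 in mTEClo for KO against Ski flox Control (4.48% and 4.33% of all genes), and 4 and 5 for Ski flox Control against Control (4.12% and 3.36%). In mTEChi it called 0 in both (0.456% and 0.404%). For the KO difference compared between subsets DESeq2 called 4 P450 genes for mTEClo with cTEC (1.62%), 5 for mTEChi with cTEC (1.58%) and 5 for mTEChi with mTEClo (0.603%).

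**Figure D5:**
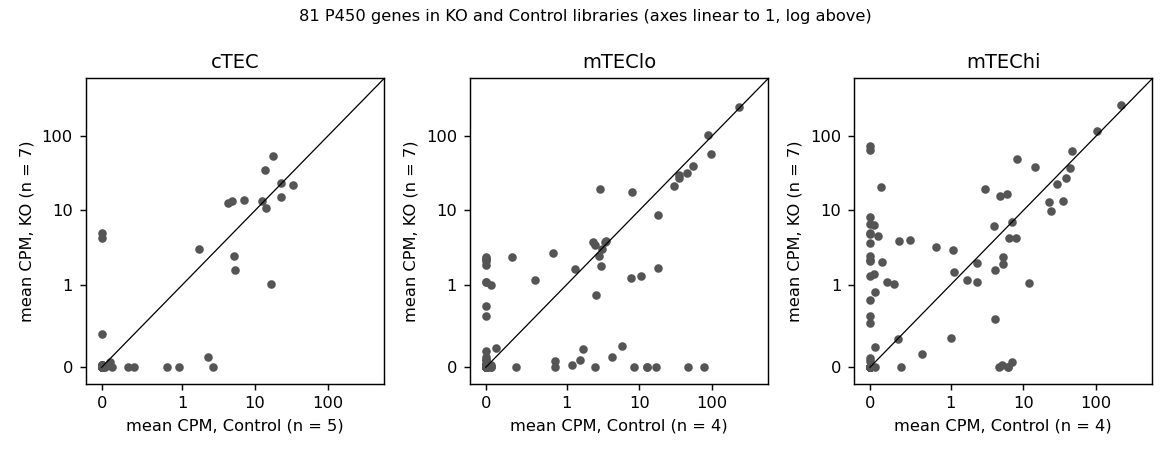
Mean CPM of the 81 P450 genes in Control (x axis) and KO (y axis) libraries of each subset; axes are linear to 1 CPM and logarithmic above, and the line marks equal means. Cyp2a5 lies near the line in both medullary subsets, at 234 against 250 CPM and 222 against 264 CPM, while Cyp2f2 in mTEChi is at 8.18 in Control and 49.1 in KO.

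In cTEC the smallest p-values for KO against Control belonged to Cyp3a13, Cyp2d12, Cyp1a2, Cyp2u1 and Cyp2c70 (unadjusted p from 0.00798 to 0.0293; smallest edgeR adjusted p = 0.330). Cyp3a13 and Cyp1a2 were at 0 in Control and present in 1 KO library, and Cyp2d12, Cyp2u1 and Cyp2c70 were at 0 in KO and present in 1 Control library each. In mTEClo the genes were Cyp4b1, Cyp3a11, Cyp1a1, Cyp2c68 and Cyp1a2 (unadjusted p from 0.000991 to 0.00343; edgeR adjusted p = 0.639 each). All 5 were at 0 in the 7 KO libraries. In Control, Cyp4b1 held 1.97, 309, 0 and 0 CPM, Cyp1a1 6.39, 44.5, 0 and 0 CPM, and Cyp2c68 24.3, 8.36, 1.67 and 0 CPM. In mTEChi the genes were Cyp4x1, Cyp2e1, Cyp3a25, Cyp3a44 and Cyp2c54 (unadjusted p from 0.00156 to 0.0187; edgeR adjusted p from 0.661 to 0.678). Cyp3a25, a liver gene, was at 0 in the 4 Control libraries and held 28.0, 20.6, 5.50 and 3.69 CPM in 4 of 7 KO libraries, and also 0.208 and 16.3 CPM in the 2 Ski flox Control libraries. Cyp2e1, the ethanol-oxidising enzyme, was at 0 in KO and had 0.274 and 24.0 CPM in 2 of 4 Control libraries.

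Cyp2a5, Cyp2b19 and Cyp4f13 gave no call either. Cyp2a5 averaged 234 ± 283 CPM (SD, n = 4) in mTEClo Control and 250 ± 219 (SD, n = 7) in KO, and 222 ± 179 (SD, n = 4) and 264 ± 142 (SD, n = 7) in mTEChi. Its log2 difference between KO and Control was 0.10 ± 1.22 (SE) in mTEClo and 0.25 ± 1.23 in mTEChi, with an edgeR adjusted p of 1.0 in both. Cyp2b19 averaged 35.7 ± 16 CPM (SD, n = 4) in mTEChi Control and 13.3 ± 18.6 (SD, n = 7) in KO. In mTEChi Ski flox Control Cyp2b19 was at 71.7 and 0 CPM, which spans the values of both. Cyp4f13 averaged 33 ± 8.37, 35.4 ± 11.4 and 38.8 ± 9.78 CPM in cTEC, mTEClo and mTEChi Control (SD, n = 5, 4 and 4), and 22.1 ± 17.8, 30.5 ± 16.2 and 27.6 ± 9.67 CPM in KO (SD, n = 7 each).

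The enzymes depend on redox partners, heme and transcription factors, which were read as separate lists. Of 9 genes for redox partners and heme supply, 2 rose in mTEClo and 3 in mTEChi over Control and KO, and 0 fell. For all lists in these comparisons, 14.2% of all genes rose and 2.25% fell in mTEClo, and 21.1% rose and 3.31% fell in mTEChi. Pgrmc1, a heme-binding partner of P450 enzymes, rose by 1.81 ± 0.27 log2 in mTEChi (SE; edgeR adjusted p = 3e-05) from a median of 184 CPM in cTEC to 561 CPM. Alas1, the first enzyme of heme synthesis, rose by 1.75 ± 0.44 (edgeR adjusted p = 0.00484). Of 18 tested regulators that sense xenobiotics and lipids or direct liver and gut genes, 3 rose in mTEClo and 5 in mTEChi, counts close to those shares, while Nfe2l2, the oxidative stress regulator, fell by 0.61 log2 in mTEChi. Foxa1, a pioneer factor of endoderm, was at a median of 0 CPM in cTEC, 9.84 in mTEClo and 20.5 in mTEChi and rose by 8.71 ± 1.08 log2 in mTEChi (edgeR adjusted p = 2.58e-06). Nr1i2, the pregnane X receptor, passed in both medullary subsets with a median of 0 CPM in each.

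Conjugating enzymes, which act on P450 products, rose in 12 of 37 tested genes in mTEClo and 16 of 37 in mTEChi, with 1 fall, Mgst2, in mTEChi, beside the 14.2% and 21.1% of all genes that rose. Mgst3, a microsomal glutathione transferase, had medians of 28.5 CPM in cTEC, 151 in mTEClo and 224 in mTEChi. Gstm1, a cytosolic glutathione transferase, had medians of 62.9, 67.8 and 584 CPM and passed in mTEChi (2.70 ± 0.60 log2, SE; edgeR adjusted p = 0.00189). Of 19 tested genes of other P450 families, 2 rose and 1 (Cyp26b1) fell in mTEClo and 10 rose in mTEChi, against the same shares. Cyp26a1, which degrades retinoic acid, had medians of 0, 0 and 88.2 CPM, and Cyp11a1, which starts steroid synthesis, of 0, 5.48 and 28.8 CPM.

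Markers of liver and gut cells were also higher in the medullary subsets. Of 13 hepatocyte markers 5 rose in mTEClo and 11 in mTEChi, where 14.2% and 21.1% of all genes rose, and their summed level ran from 0 to 12 CPM in cTEC, 1.57 to 811 in mTEClo and 32.4 to 1018 in mTEChi. Of 10 tested enterocyte markers 9 rose in mTEClo and 10 in mTEChi, with summed levels of 1.01 to 491, 70.3 to 7945 and 893 to 3977 CPM. Among regulators of this kind of transcription, Aire had medians of 39.4, 28.7 and 528 CPM and passed in mTEChi (4.02 ± 0.90 log2, SE; edgeR adjusted p = 0.00209). Fezf2 had medians of 4.50, 55 and 478 CPM and passed in both medullary subsets. In mTEChi 3 of 7 thymocyte markers and 3 of 7 fibroblast markers fell against cTEC, where 3.31% of all genes fell, and the part of such admixed RNA in the P450 differences was not tested. In none of these lists did a gene pass for KO against Control in any subset by edgeR.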

How the data were processed

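RNA of 200 sorted cells a library was reverse transcribed and amplified to full-length cDNA with the SMART-Seq v4 Ultra Low Input kit, and libraries were made with NexteraXT, per the labels' protocols; these kits mark no strand and carry no molecular identifiers. The authors deposited whole-number read counts per gene for 42 libraries. Per the submitters' processing notes the build was GRCm38 and the tools included HTSeq 0.4.1, Picard 1.134, FastQC 0.11.3 and SAMtools 1.2; the aligner, annotation release and counting settings were not given in the sources used. Symbols and coordinates came from GENCODE M21 (53274 of 53465 identifiers matched). Libraries under 100000 counts, 2 in all, were left out. CPM are counts divided by a library's TMM-scaled total, times 1000000. The depth allows a floor of 3 counts; intervals and floors cover counting error only.

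Genes were kept by filterByExpr (minimum count 10, total 15), and all 9 groups were fitted together with edgeR 4.0.16 (glmQLFit, glmQLFTest, TMM; R 4.3.3) with Benjamini-Hochberg adjustment over the 23040 genes tested. The biological coefficient of variation was 1.40. SE is the absolute log2 difference divided by the square root of F. Alternatives were RLE scaling, other count filters, DESeq2 1.42.0 (17 values it gave as NA were left out), limma voom 3.58.1, the early or late libraries, covariates, all 42 libraries, only the groups compared, and each library left out. Tables and plots used Python 3.11.15, pandas 2.3.3, NumPy 2.4.6 and matplotlib 3.10.9. Named genes were those past adjusted p 0.05, the 12 highest per kb, the 5 of smallest p in each KO comparison, the most abundant of each subfamily, Cyp3a11 and Cyp2c68. The members and lists were chosen with earlier results of these data known.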

Additional observations from a re-analysis of the deposited data

Results flagged for a closer look

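Within groups of 4 to 7 libraries, the highest or lowest library was compared with the rest by Dixon's ratio. The series were log2(CPM + 1) of every named P450 gene whose highest library in the group reached 10 CPM. The number of P450 genes detected and the log2 of their summed CPM were screened in each group too, and were not flagged. Of 129 such series 35 stood out (27.1%), 31 with a high and 4 with a low library. In 19 of the 35 every other library of the group was at 0. Chance flags about 1 in 20 groups of normally distributed values, which is no measure here, since each gene's series needed a library at 10 CPM and many hold zeros. In cTEC Control, replicate 3 stood apart for Cyp2d12 (13.09 CPM). In cTEC KO, replicate 2 stood apart for Cyp1a2 (29.44 CPM), Cyp2g1 (93.04), Cyp3a13 (35.27) and Cyp4f18 (376.3), and replicate 1 for Cyp2f2 (16.98).

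In mTEClo Control, replicate 3 was high for Cyp1a2 (67.58 CPM) and Cyp3a16 (16.73) and low for Cyp2f2 (27.58, against 101.2 to 112.3 in the others). Replicate 5 was high for Cyp2d12 (10.7) and Cyp2d26 (10.18), and replicate 1 was low for Cyp4f18 (0.737, against 9.801 to 11.22). In mTEClo KO, replicate 4 was high for Cyp2c55 (12.18) and low for Cyp4v3 (1.914, against 17.61 to 55.45). Replicate 3 was high for Cyp2d10 (12.67) and Cyp4f40 (16.62), replicate 5 for Cyp2d12 (16.61) and replicate 2 for Cyp2r1 (13.97).

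In mTEChi Control, replicate 1 was high for Cyp1b1 (16.15 CPM), Cyp3a57 (16.15) and Cyp4x1 (27.65). Replicate 3 was high for Cyp2c54 (18.71), Cyp4a12b (31.38), Cyp4b1 (20.66) and Cyp4f14 (11.69), and replicate 4 for Cyp2e1 (24.03). In mTEChi KO, replicate 3 was high for Cyp2ab1 (16.31) and Cyp2d12 (43.57), replicate 1 for Cyp2c29 (22.55) and Cyp2c55 (451.4), replicate 6 for Cyp3a11 (34.96) and replicate 7 for Cyp3a16 (14.76). Replicate 5 was high for Cyp4a12b (29.77) and low for Cyp4f16 (34.84, against 60.88 to 77.9), and replicate 4 was high for Cyp4b1 (13.3). The library mTEChi Control replicate 2, left out for its 41828 counts, held 16 counts of Cyp4f13 and 5 counts of Cyp4a12b, above the floor of 3 counts.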

How the results depend on the processing

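The number of P450 genes called between subsets depended on the test and filter. With a filter of at least 10 CPM in 5 libraries the counts were 1 for mTEClo against cTEC in Control, 4 for mTEChi against cTEC in Control and 4 in KO, and 6 and 6 over Control and KO. Of the 62 pairs of gene and comparison called in the main fit, 22 stayed called under this filter and 1 did not. The others were not tested, since the filter removed their genes. For the filters, the covariates, all 42 libraries and only the groups compared, the share of all genes called is not given here. With no count filter mTEClo against cTEC in KO gave 3. DESeq2 gave 6, 6 and 1 for mTEClo against cTEC, mTEChi against cTEC and mTEChi against mTEClo in Control, 8, 11 and 6 in KO, and 13 and 2 for the last pair of comparisons over both genotypes. limma voom gave 6 and 8 against cTEC in Control, 2 for mTEClo against cTEC in KO, and 2 and 3 for mTEChi against mTEClo in KO and over both. With the library set as a covariate the counts were 1 and 3 against cTEC in Control and 11 for mTEChi in KO. With detected genes as a covariate they were 1 and 3 in Control, 7 for mTEChi in KO, and 9 and 13 over both. In the early libraries alone, mTEChi against cTEC in Control gave 0 (0.0199% of all genes), the KO comparisons 0 and 0 (0.189% and 1.03%), and the comparisons over both 0 and 1 (1.37% and 3.51%). In the late ones mTEClo against cTEC in Control gave 1 (3.51%), the KO comparisons 2 and 2 (1.76% and 2.76%), and over both 4, 5 and, for mTEChi against mTEClo, 1 (9.15%, 10% and 3.38%). With all 42 libraries mTEClo against cTEC in KO gave 8. With only the groups compared, mTEChi in Control gave 2, KO 0 and 0, and over both 8 and 9. In those fits 18 of the 62 pairs stayed called, 4 did not, and the others were not tested. For the Ski genotypes, DESeq2 alone called P450 genes. It gave 3, 4 and 4 in cTEC (KO against Control, KO against Ski flox Control, Ski flox Control against Control), 6, 3 and 5 in mTEClo and 3 for KO against Control in mTEChi, and 4, 5 and 5 for the KO difference compared between subsets (mTEClo with cTEC, mTEChi with cTEC, mTEChi with mTEClo). The cause was not tested. Leaving out 1 library gave 0 to 1 calls for mTEChi against cTEC in Control, 1 to 6 and 6 to 18 for mTEClo and mTEChi in KO, and 12 to 18 and 15 to 23 over both; all other comparisons stayed at 0. The mean number of genes detected ranged from 12 to 13.8, 8.7 to 10 and 9.0 to 9.0 in cTEC Control, KO and Ski flox Control, from 26.7 to 30.7, 19.7 to 22.2 and 10 to 20 in mTEClo and from 26 to 31.0, 22.2 to 26.5 and 32.0 to 36.0 in mTEChi. In Ski flox Control a detection rule of 3 counts gave 8.5 genes in cTEC and 28.0 in mTEChi, 1 CPM gave 7.5 and 26.5, and thinning to 3000000 counts gave 8.5 and 30.5. No log2 difference changed sign among 2070 values under alternatives, of which 14 were 0.00. These values covered only the called pairs of gene and comparison and the 5 of smallest p in each KO comparison. Many of these genes had no count in a whole group compared, which left little room for a change of sign, so the result carries no test. No paired analysis was run, since the labels give no replicate numbers and tie no libraries to a mouse. Library numbers run in 14 consecutive sets of 3, each with 1 library of every subset and 1 genotype, but no label says what such a set shares.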
